A study of Mus musculus with 8 samples.

Results

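The insulin-like growth factor (IGF) axis was examined in 8 mouse lung tumors through 10 genes: the ligand *Igf1*, the receptors *Igf1r*, *Igf2r* and *Insr*, and the IGF-binding protein genes *Igfbp2*, *Igfbp3*, *Igfbp4*, *Igfbp5*, *Igfbp6* and *Igfbp7*. They are 10 of the 48709 genes in the count table, and all 10 passed the filter on low counts with 14929 genes in total. *Igfbp5* was chosen because it had the smallest p-value of all genes between the genotypes, and the other 9 were taken as its relatives and receptors. The values of *Igfbp5* in this contrast are therefore given as a description, with no test.

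Tumors were of the K model, in mice on a mixed B6J/129S4vJae background that were infected through the airway with the lentiviral vector LentiCRISPRv2Cre, which carries Cre, Cas9 and a guide RNA. The K background, the Cre virus and Cas9 are shared by both groups. In the 4 *K-Ctrl* tumors the guide RNA was a control against GFP, and in the 4 *K-Setd2KO* tumors it targeted *Setd2*, the gene for the enzyme that trimethylates lysine 36 of histone H3. A single *Setd2* guide was used, age and time after infection are not given in the labels, and tumors were matched for stage by histology. The design text describes flash-frozen tumors, with no sorting of cells, although the extraction text of the labels mentions cell lines, a difference that was not resolved. Nothing in the labels says whether the tumors came from separate mice, so p-values measure the spread between these samples.

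Libraries held between 5806599 counts (*K-Setd2KO* replicate 4) and 21290402 counts (*K-Ctrl* replicate 3). *Setd2* mRNA was 153, 138, 132 and 138 CPM across *K-Ctrl* replicates 1 to 4, against 145, 121, 124 and 153 CPM across *K-Setd2KO* replicates 1 to 4, where CPM is the count scaled to a common library size. The groups overlapped (log2 fold change −0.05, SE 0.115, adjusted p 0.824), so the level of the targeted transcript did not separate the labels, and a guide can inactivate a gene without lowering its mRNA. The alveolar type 2 markers *Sftpc* (25164 ± 5046 CPM in the control tumors and 25119 ± 3714 CPM in the *K-Setd2KO* tumors, mean ± SD, n = 4) and *Abca3* (897 ± 94.6 and 898 ± 122 CPM) were abundant in every tumor. *Xist* and Y-linked genes gave 1 female and 3 male *K-Ctrl* tumors, and 3 female and 1 male *K-Setd2KO* tumors.

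IGF1 and IGF2 are secreted growth factors that signal through the receptor tyrosine kinase IGF1R and, for IGF2, also through the insulin receptor, while IGF2R binds IGF2 and carries it to lysosomes. The IGF-binding proteins are secreted proteins that hold IGFs in the extracellular space, extend their life and control how much reaches the receptors. IGFBP2 to IGFBP6 bind IGFs with high affinity, whereas IGFBP7 binds them weakly and is abundant in vessel walls and matrix.

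*Igfbp5* (ENSMUSG00000026185.8, chromosome 1, 72857932 to 72874884, minus strand), whose protein binds IGFs, heparin and extracellular matrix, was lower in every *K-Setd2KO* tumor than in any *K-Ctrl* tumor. Its level was 193, 184, 204 and 131 CPM across *K-Ctrl* replicates 1 to 4, against 36.4, 37.6, 34.3 and 33.2 CPM across *K-Setd2KO* replicates 1 to 4. The lowest control, replicate 4, was well above the highest *K-Setd2KO* tumor. Group means were 178 ± 32.2 and 35.4 ± 2.00 CPM (mean ± SD, n = 4), a 5.03-fold lower mean with a log2 fold change of −2.33 (SE 0.153). The next gene in the order of p-values, *1190002N15Rik*, differed by −2.001 on the log2 scale (SE 0.165) and lies just outside the choice.

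The coefficient of variation of *Igfbp5* was 5.65% among the *K-Setd2KO* tumors, which had 194 to 709 counts, and 18.1% among the *K-Ctrl* tumors. A choice by smallest p-value favors genes with little spread inside the groups, so these values are part of what chose *Igfbp5*.

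*Igfbp6* and *Igfbp2* were the other members that passed the test, both lower in *K-Setd2KO*. Among the 9 members other than *Igfbp5*, 2 were lower, 0 were higher and 7 did not pass an edgeR quasi-likelihood adjusted p of 0.05. Of all genes tested, 7.74% were called lower and 4.97% higher, and 2 of 9 is too few members to read against that background. None of the 9 was higher at an unadjusted edgeR p of 0.05 either, or with DESeq2 or limma voom, and 3 were lower at that unadjusted p. The median log2 fold change of the 9 was −0.08, and that of all genes tested was 0.03. In whole tumors, fewer cells of a type and less RNA per cell cannot be told apart, and this holds for each gene described here.

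*Igfbp6* (ENSMUSG00000023046.6, chromosome 15, 102144362 to 102149511, plus strand), a binding protein that prefers IGF2 over IGF1, was 33.4, 13.8, 26.1 and 9.73 CPM in *K-Ctrl* replicates 1 to 4. In *K-Setd2KO* replicates 1 to 4 it was 3.24, 0.765, 1.11 and 0 CPM, the last from 0 counts in a library where 3 counts equal 0.513 CPM. No *K-Setd2KO* tumor reached the lowest control, as was the case in this direction for 11.2% of all genes tested. Means were 20.7 ± 10.9 and 1.28 ± 1.39 CPM (mean ± SD, n = 4; log2 fold change −3.86, SE 0.757, adjusted p 0.0155). *Igfbp6* had 63 counts or fewer in each *K-Setd2KO* tumor and passed the low-count filter through the *K-Ctrl* tumors. With all genes kept, the adjusted p was 0.0530, and a filter of 10 counts in every tumor removed the gene.

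*Igfbp2* (ENSMUSG00000039323.18, chromosome 1, 72824503 to 72852474, plus strand), a binding protein with an integrin-binding motif, varied widely among controls, with 117, 20.4, 70.8 and 10.2 CPM in *K-Ctrl* replicates 1 to 4. It was 14.4, 6.35, 3.51 and 7.02 CPM in *K-Setd2KO* replicates 1 to 4. *K-Ctrl* replicates 1 and 3 stood above all other tumors, whereas *K-Ctrl* replicate 4 fell below *K-Setd2KO* replicate 1, so the groups overlapped. Means were 54.5 ± 49.2 and 7.81 ± 4.64 CPM (mean ± SD, n = 4; log2 fold change −2.78, SE 0.761, adjusted p 0.0453). This call held in 7 of 16 other settings, and it was lost without *K-Ctrl* replicate 1 (adjusted p 0.111) or 3 (0.106), without *K-Setd2KO* replicate 2 (0.0820), 3 (0.108) or 4 (0.0944), and with sex in the model (0.196).

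**Figure D1:**
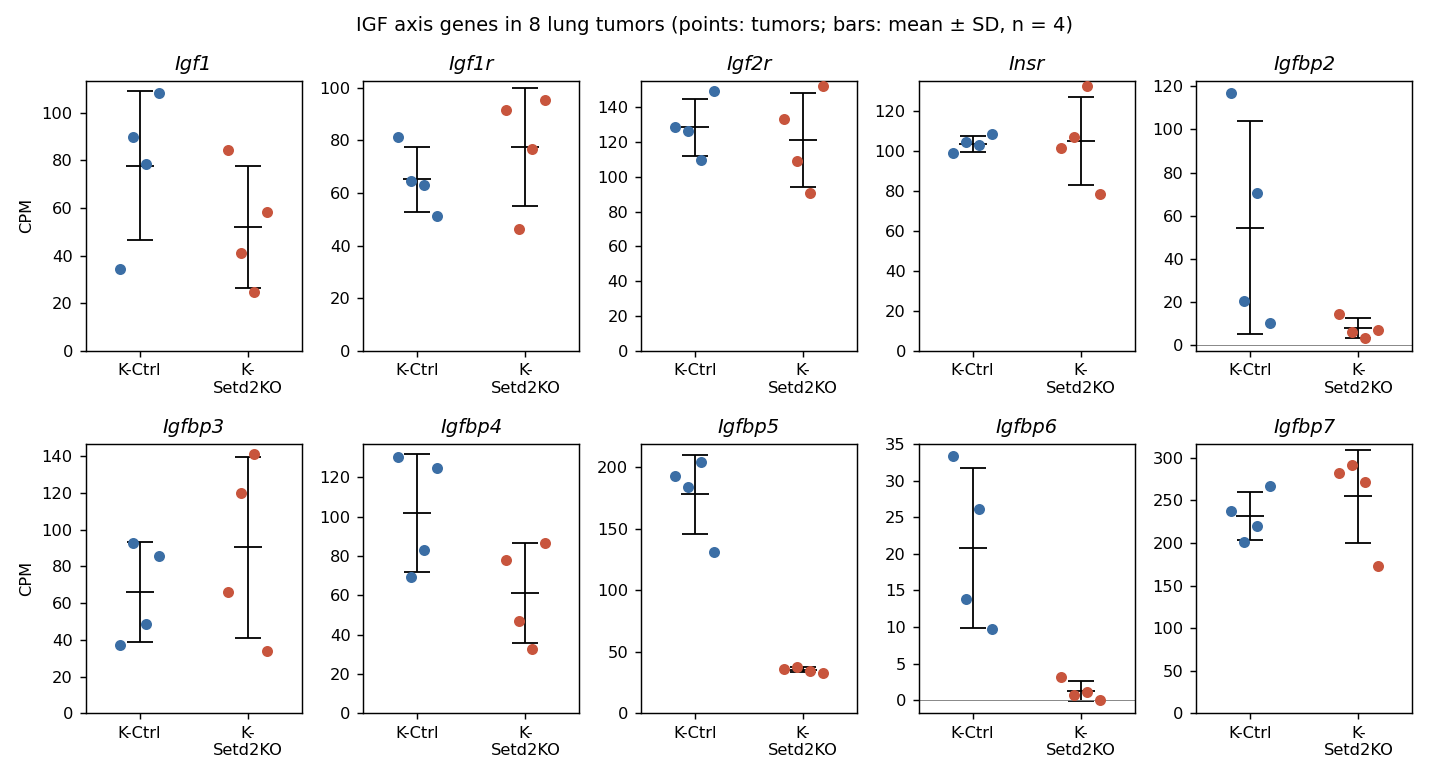
CPM of the 10 IGF axis genes in each tumor (points), with group mean and SD (bars, n = 4 each) and a linear axis for each gene. *K-Setd2KO* tumors lie at 33.2 to 37.6 CPM for *Igfbp5* against 131 to 204 CPM in *K-Ctrl*, *Igfbp6* is at 0 in *K-Setd2KO* replicate 4, and the points of the 2 groups overlap for the other 8 genes.

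The sequence before each of these 3 lower genes is given, because *Igfbp5* is the gene the others were chosen around and *Igfbp6* and *Igfbp2* are the members that passed the test, as the 250 bases upstream of the RefSeq start (GRCm38.p6, written on the strand of the gene, 5′ to 3′). Capitals mark matches on either strand to the letters of a TATA box (TATAAA), a GC box (GGGCGG), the motif of TEAD factors (GGAATG) and the AP-1 motif (TGANTCA), and no match overlaps another. The windows are *Igfbp5* at chr1:72874866-72875115 on the minus strand, *Igfbp2* at chr1:72824230-72824479 on the plus strand and *Igfbp6* at chr15:102143936-102144185 on the plus strand. The last bases of the *Igfbp5* window lie inside the gene as the count table draws it.
*Igfbp5*: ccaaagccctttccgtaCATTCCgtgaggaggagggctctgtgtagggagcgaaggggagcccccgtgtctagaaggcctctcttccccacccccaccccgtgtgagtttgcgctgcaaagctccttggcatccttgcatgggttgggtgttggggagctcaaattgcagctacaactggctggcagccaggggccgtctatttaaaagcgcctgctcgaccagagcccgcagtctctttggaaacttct
*Igfbp2*: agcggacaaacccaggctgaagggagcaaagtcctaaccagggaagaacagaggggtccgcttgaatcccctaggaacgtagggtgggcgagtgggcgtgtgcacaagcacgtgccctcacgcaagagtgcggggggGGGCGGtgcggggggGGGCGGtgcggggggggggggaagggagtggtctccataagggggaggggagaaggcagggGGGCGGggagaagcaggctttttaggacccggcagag
*Igfbp6*: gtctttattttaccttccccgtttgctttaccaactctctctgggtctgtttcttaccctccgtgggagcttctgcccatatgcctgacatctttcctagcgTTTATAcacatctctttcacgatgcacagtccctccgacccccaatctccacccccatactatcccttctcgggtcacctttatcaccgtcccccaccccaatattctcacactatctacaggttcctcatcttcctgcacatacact

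The 3 windows had no searched motif in common. *Igfbp5* had 1 match to the TEAD letters, read as CATTCC and beginning 233 bases before the start. *Igfbp2* had 3 GC boxes, the nearest beginning 37 bases before the start, and *Igfbp6* had 1 match to the TATA letters on the reverse strand, beginning 148 bases before it. GC content was 58.8% for *Igfbp5*, 67.2% for *Igfbp2* and 49.6% for *Igfbp6*, against a median of 52.4% over 32851 such windows. Of those windows, 12.6% held the TEAD letters, 32.7% a GC box, 12.4% the TATA letters and 6.75% the AP-1 letters. A match is only a run of letters. RefSeq lists a further start for *Igfbp2*, whose window held 1 match to the AP-1 letters and no other. Of the 10 members 9 had an entry in the set of promoter windows used here, which held none for *Insr*.

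The remaining binding proteins did not pass the test. *Igfbp4* (ENSMUSG00000017493.12, chromosome 11, 99041244 to 99054392, plus strand), which restrains IGF action until proteases cleave it, was 130.2, 69.4, 83.2 and 125 CPM across *K-Ctrl* replicates 1 to 4, against 78.1, 47.0, 32.7 and 86.4 CPM across *K-Setd2KO* replicates 1 to 4. Its groups overlapped, with a lower mean in *K-Setd2KO* (log2 fold change −0.74, SE 0.327, adjusted p 0.166). *Igfbp3* (ENSMUSG00000020427.11, chromosome 11, 7206086 to 7213923, minus strand), the main IGF carrier in serum, was 37.1, 92.7, 48.8 and 85.8 CPM in the *K-Ctrl* tumors, against 66.0, 119.9, 141 and 33.7 CPM in the *K-Setd2KO* tumors. Its lowest and highest values both came from *K-Setd2KO* tumors (log2 fold change 0.45, SE 0.450, adjusted p 0.538). *Igfbp7* (ENSMUSG00000036256.13, chromosome 5, 77349240 to 77408041, minus strand) was 238, 201, 220.0 and 267 CPM in the *K-Ctrl* tumors, against 282, 291, 272 and 173 CPM in the *K-Setd2KO* tumors (log2 fold change 0.14, SE 0.178, adjusted p 0.648). Its *K-Setd2KO* replicate 4 stood below every other tumor while the other 3 *K-Setd2KO* tumors stood above every control. Its end overlaps the end of *Polr2b* on the opposite strand, whose own level was at most 86.2 CPM, and whether counting used the strand is not stated.

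**Figure D2:**
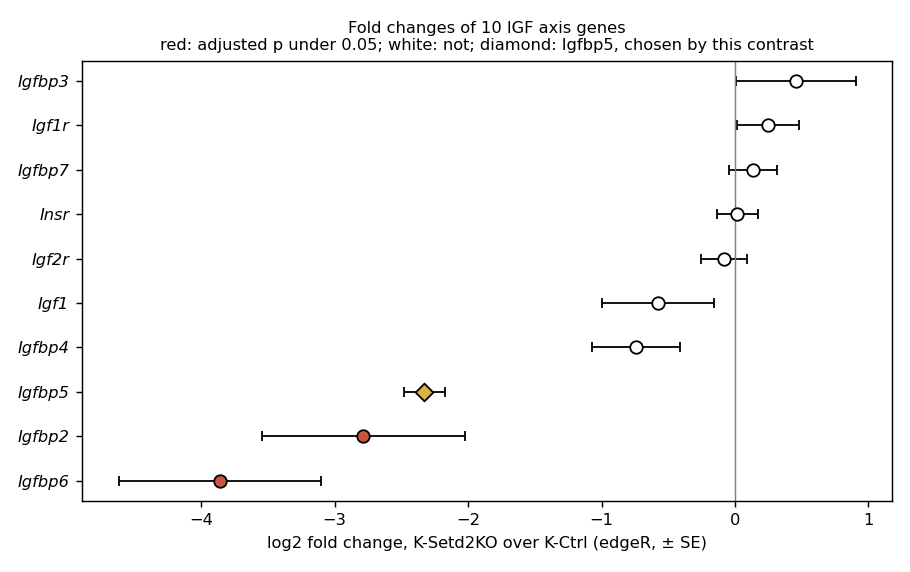
Log2 fold change of *K-Setd2KO* over *K-Ctrl* with its standard error for the 10 genes (edgeR, 4 tumors a group). *Igfbp6* at −3.86 and *Igfbp2* at −2.78 passed an adjusted p of 0.05 and have the widest errors, and *Igfbp5* at −2.33 (diamond, chosen by this contrast and not tested) has an error of 0.153.

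Per kilobase of exon, *Igfbp7* led the binding proteins in every tumor. On this scale its mean level was 191.5 ± 23.0 CPM per kilobase in control tumors and 210.5 ± 45.5 in *K-Setd2KO* tumors (mean ± SD, n = 4). In *K-Ctrl* the next levels were *Igfbp5* (29.6 ± 5.36), *Igfbp2* (29.5 ± 26.6), *Igfbp4* (23.1 ± 6.83), *Igfbp3* (21.1 ± 8.72) and *Igfbp6* (18.7 ± 9.82), and the ranges of each neighboring pair in this order overlapped. In *K-Setd2KO* the order after *Igfbp7* was *Igfbp3* (28.8 ± 15.7), *Igfbp4* (13.8 ± 5.75), *Igfbp5* (5.89 ± 0.333), *Igfbp2* (4.23 ± 2.51) and *Igfbp6* (1.15 ± 1.25). *Igfbp5* thus went from the second place among the binding proteins in *K-Ctrl* to the fourth in *K-Setd2KO*, where its range lay below that of *Igfbp4* and overlapped that of *Igfbp2*. The *K-Setd2KO* ranges of *Igfbp3* and *Igfbp4* overlapped, as did those of *Igfbp2* and *Igfbp6*.

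As a share of the summed per-kilobase level of *Igfbp2* to *Igfbp7*, *Igfbp5* made up 9.56% ± 2.05 in control tumors and 2.30% ± 0.486 in *K-Setd2KO* tumors (mean ± SD, n = 4). The share was 8.83, 11.5, 10.9 and 7.0% across *K-Ctrl* replicates 1 to 4, against 2.10, 2.09, 2.00 and 3.03% across *K-Setd2KO* replicates 1 to 4. The *Igfbp7* share went from 61.4% ± 7.05 to 79.5% ± 1.22, and its 4 *K-Setd2KO* shares lay between 78.3 and 80.8%, above the 70.6% of the highest control. The level of *Igfbp7* did not pass the test (adjusted p 0.648). The summed level was 313.5 ± 39.8 CPM per kilobase in control tumors and 264.4 ± 54.9 in *K-Setd2KO* tumors, with overlapping groups, and 283.9 ± 39.5 and 258.5 ± 54.6 without *Igfbp5*. Without scaling to length, *Igfbp5* was 27.4% and 8.03% of the sum.

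**Figure D3:**
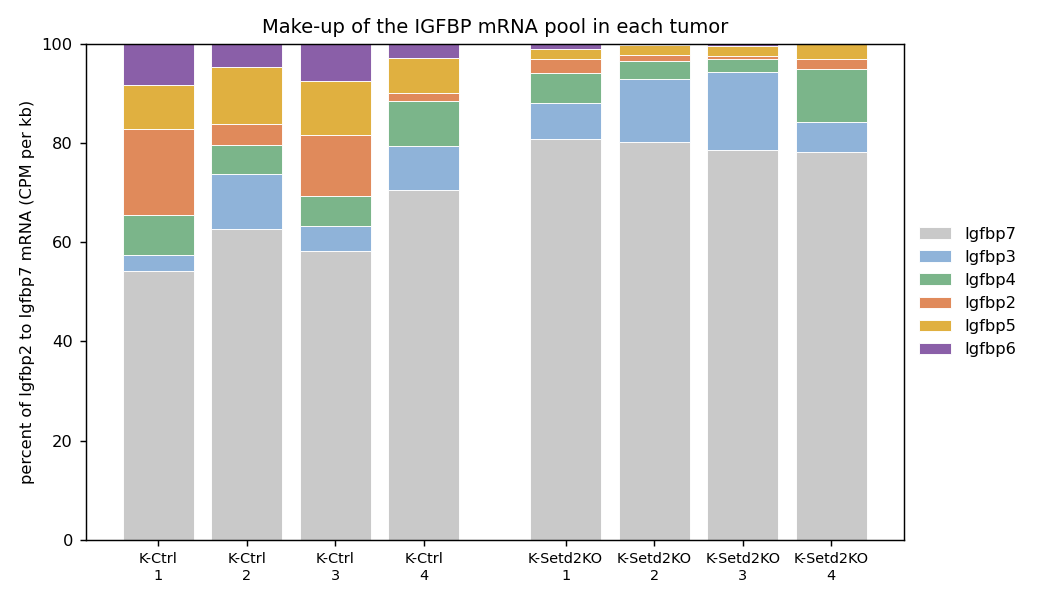
Percent of the summed *Igfbp2* to *Igfbp7* level (CPM per kilobase of exon) held by each gene in each tumor. *Igfbp7* (grey) takes 54.1 to 70.6% in *K-Ctrl* and 78.3 to 80.8% in *K-Setd2KO*, and the bands of *Igfbp5*, *Igfbp2* and *Igfbp6* together narrow in *K-Setd2KO*.

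Neither the ligand nor the receptors passed the test. *Igf1* (ENSMUSG00000020053.18, chromosome 10, 87858265 to 87937042, plus strand), the ligand, was 34.3, 89.9, 78.6 and 108 CPM across *K-Ctrl* replicates 1 to 4, against 84.6, 41.1, 24.5 and 58.2 CPM across *K-Setd2KO* replicates 1 to 4 (log2 fold change −0.57, SE 0.421, adjusted p 0.396). The lowest control, replicate 1, lay below 3 *K-Setd2KO* tumors. *Igf1r* (ENSMUSG00000005533.10, chromosome 7, 67952827 to 68233668, plus strand), the signaling receptor, was 81.4, 64.6, 63.1 and 51.4 CPM in the *K-Ctrl* tumors, against 91.6, 46.1, 76.9 and 95.3 CPM in the *K-Setd2KO* tumors, with the lowest value in *K-Setd2KO* replicate 2 (log2 fold change 0.25, SE 0.232, adjusted p 0.510).

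*Igf2r* (ENSMUSG00000023830.13, chromosome 17, 12682406 to 12769664, minus strand), the clearance receptor, was 129, 126, 109.8 and 149.7 CPM in the *K-Ctrl* tumors, against 134, 109, 90.9 and 152 CPM in the *K-Setd2KO* tumors (log2 fold change −0.08, SE 0.173, adjusted p 0.781). *Airn*, an antisense transcript across its start, was at 1.71 to 5.09 CPM. *Insr* (ENSMUSG00000005534.10, chromosome 8, 3122061 to 3279617, minus strand), the insulin receptor, was 98.9, 105, 103 and 108 CPM in the *K-Ctrl* tumors, against 101, 107, 132 and 78.7 CPM in the *K-Setd2KO* tumors (log2 fold change 0.02, SE 0.152, adjusted p 0.949). The *K-Ctrl* tumors lay close together and inside the *K-Setd2KO* range. The directions of *Igf2r* and *Insr* changed with single tumors or with the model, so neither gene has a direction here.

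Per kilobase, *Igf2r* had the highest level of the 3 receptors in both groups, at 13.6 ± 1.73 CPM per kilobase in control tumors and 12.9 ± 2.85 in *K-Setd2KO* tumors (mean ± SD, n = 4). *Insr* was at 7.54 ± 0.286 and 7.63 ± 1.605, and *Igf1r* at 3.88 ± 0.735 and 4.61 ± 1.33. In *K-Ctrl* the ranges of these receptors did not overlap in this order, while in *K-Setd2KO* they overlapped between *Igf2r* and *Insr*.

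Other genes of the axis were read from a list of 60 genes in 7 groups, of which 50 were tested, 11 were called lower and 3 higher, against 7.74% lower and 4.97% higher of all genes tested. The 3 of 50 higher is near that background. Their median log2 fold change was −0.21, against 0.03 for all genes tested. *Igf2*, the other IGF ligand, was low, at 5.67 ± 1.46 CPM in the control tumors and 5.44 ± 1.94 CPM in the *K-Setd2KO* tumors (mean ± SD, n = 4; log2 fold change −0.04, SE 0.319, adjusted p 0.941). Of the other ligands and carriers, *Ins1*, *Ins2* and *Igfbpl1* had 0 counts in all 8 tumors, and *Igfbp1*, *Igfals* and *Insrr* were too low to test.

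Of the 11 tested genes whose proteins carry an IGFBP-type domain without being classical IGFBPs, 5 were called lower, beside 7.74% of all genes tested, and the median log2 fold change of the 11 was −1.09. All 11 log2 fold changes were negative, as were those of 7060 of the 14929 genes tested. Those of *Kazald1* (−0.26, SE 0.635) and *Htra4* (−0.48, SE 0.777) were smaller than their SE. The matricellular genes *Ccn1*, *Ccn2*, *Ccn3* and *Ccn5* were lower, and so was *Htra1*, a secreted serine protease. *Ccn1*, a well known target gene of YAP and TEAD, was 133, 112, 135 and 105 CPM across *K-Ctrl* replicates 1 to 4, against 46.8, 53.8, 36.7 and 36.5 CPM across *K-Setd2KO* replicates 1 to 4. Every control was over every *K-Setd2KO* tumor (log2 fold change −1.48, SE 0.162, adjusted p 0.00453).

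*Ccn2*, the connective tissue growth factor gene, fell from 125 ± 30.4 to 58.5 ± 22.8 CPM (mean ± SD, n = 4; log2 fold change −1.09, SE 0.296, adjusted p 0.0436). *Ccn3* was 66.1, 66.2, 165 and 132 CPM in the *K-Ctrl* tumors, against 40.9, 8.87, 24.5 and 9.07 CPM in the *K-Setd2KO* tumors (log2 fold change −2.34, SE 0.546, adjusted p 0.0270). *Ccn5*, which lacks the C-terminal domain of its relatives, fell from 8.35 ± 2.24 to 1.94 ± 0.235 CPM (log2 fold change −2.09, SE 0.275, adjusted p 0.00574). *Htra1* fell from 28.5 ± 6.68 to 10.2 ± 3.41 CPM (log2 fold change −1.49, SE 0.276, adjusted p 0.0126), and it overlaps Fgfr2 on the opposite strand, a gene at up to 346 CPM. Whether counting used the strand is not stated, so reads of Fgfr2 in the *Htra1* count cannot be told apart. For these 5 genes, *Ccn1* included, every *K-Setd2KO* tumor lay below every control, as it did for 11.2% of all genes tested. With each tumor left out in turn, *Ccn3* was called in 5 of 8 fits, being lost without *K-Ctrl* replicate 3 or *K-Setd2KO* replicate 3 or 4, and *Ccn2* in 2 of 8, those without *K-Ctrl* replicate 4 or *K-Setd2KO* replicate 2.

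Signaling genes were called in both directions. In the growth hormone branch, which drives *Igf1* in liver, the receptor gene *Ghr* fell from 86.7 ± 20.8 to 43.8 ± 13.3 CPM (log2 fold change −0.98, SE 0.249, adjusted p 0.0346) and *Stat5b*, a transcription factor below it, fell from 44.5 ± 4.84 to 30.6 ± 3.75 CPM (log2 fold change −0.54, SE 0.138, adjusted p 0.0350). The adaptor genes *Shc1* and *Sos2*, which pass signals on from activated receptors, rose. *Shc1* went from 128 ± 11.8 to 242 ± 38.8 CPM (log2 fold change 0.92, SE 0.143, adjusted p 0.00824), and *Sos2* from 101 ± 6.61 to 186 ± 29.4 CPM (log2 fold change 0.88, SE 0.132, adjusted p 0.00738). The groups did not overlap for *Ghr* and *Stat5b*, in the direction that 11.2% of all genes tested showed, or for *Shc1* and *Sos2*, where every *K-Setd2KO* tumor lay above every control, as for 9.06% of all genes tested.

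*Grb10*, an adaptor that restrains the insulin and IGF1 receptors, fell from 57.6 ± 17.0 to 25.3 ± 12.0 CPM with overlapping groups (log2 fold change −1.18, SE 0.328, adjusted p 0.0465). In the PI3K branch, *Pik3r2*, a regulatory subunit gene, rose (45.9 ± 4.67 CPM in control tumors, 65.9 ± 8.41 CPM in *K-Setd2KO* tumors, log2 fold change 0.52, SE 0.131, adjusted p 0.0329).

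*Igf2bp2*, which encodes an RNA-binding protein named for its binding of IGF2 mRNA, fell from 17.8 ± 4.51 to 6.06 ± 2.06 CPM (log2 fold change −1.54, SE 0.301, adjusted p 0.0148). None of the 6 tested genes of IGFBP proteases and their stanniocalcin inhibitors passed in the main edgeR fit. At an unadjusted p of 0.05, 2 were higher there, *Stc1* and *Adam28*. EdgeR called *Stc1* with no filter on low counts, and both genes without *K-Setd2KO* replicate 1. *Adam28* was 0.0514, 2.68, 25.5 and 30.3 CPM in *K-Setd2KO* replicates 1 to 4 (log2 fold change 3.54, SE 1.37, adjusted p 0.122). DESeq2 called 1 of the 6 higher, *Stc1*, and limma voom called 0. DESeq2 also called *Pappa2* lower, a gene of this group that the low-count filter removed in edgeR and that is named after its values were seen. *Stc1* had the smallest p among them (log2 fold change 1.25, SE 0.370, adjusted p 0.0558). With each tumor left out in turn, *Ccn1*, *Ccn5*, *Htra1*, *Igf2bp2*, *Shc1* and *Sos2* were called in all 8 fits, *Ghr* in 3, *Stat5b* and *Pik3r2* in 2, and *Grb10* in 1. The whole list gave 7 calls without *K-Ctrl* replicate 3 and 8 with sex in the model. The sexes were unevenly spread over the groups, and with the sex term *Ccn2*, *Ccn3*, *Ghr*, *Stat5b*, *Grb10* and *Pik3r2* were no longer called, while *Ccn1*, *Ccn5*, *Htra1*, *Igf2bp2*, *Shc1* and *Sos2* still were.

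**Figure D4:**
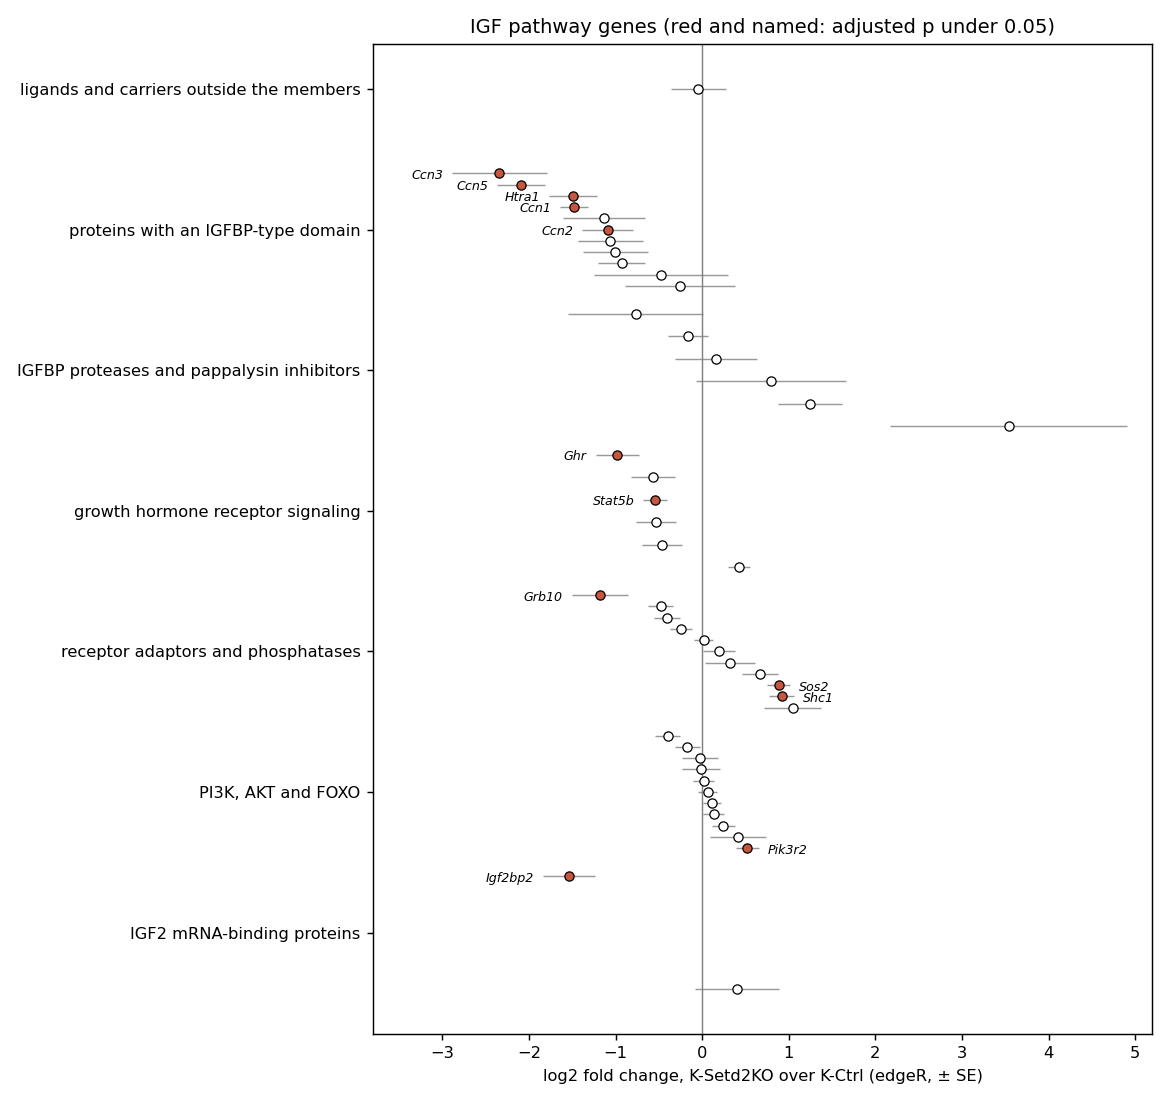
Log2 fold change of *K-Setd2KO* over *K-Ctrl* with its standard error for 48 tested genes in 7 groups of the IGF pathway (edgeR, 4 tumors a group). Red, named points passed an adjusted p of 0.05. All 11 genes with an IGFBP-type domain lie left of 0, some with errors that cross it, beside 7060 of 14929 genes tested with a negative value.

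*Igfbp5* and *Igfbp2* are neighbors on chromosome 1, with 5.46 kb between them and opposite orientation. Within 500 kb of *Igfbp5* the table lists 15 genes, of which 5 were tested and *Igfbp2* alone was called in this fit, beside 7.74% lower and 4.97% higher of all genes tested. *Xrcc5*, a DNA repair gene, was 35.6, 58.4, 46.4 and 51.9 CPM in the *K-Ctrl* tumors, against 91.4, 67.2, 60.6 and 81.8 CPM in the *K-Setd2KO* tumors (log2 fold change 0.65, SE 0.186, adjusted p 0.0511). *Rpl37a*, a ribosomal protein gene, had log2 fold change 0.43, SE 0.227, adjusted p 0.244. *Smarcal1* had log2 fold change −0.10, SE 0.166, adjusted p 0.721, and *March4* had log2 fold change −0.62, SE 0.650, adjusted p 0.565. The 10 untested neighbors were at or below 0.123 CPM.

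The 5 genes whose log2 CPM tracked *Igfbp5* most closely over the 8 tumors were *Nrp2* (Pearson r 0.995), *Plcd4* (0.995), *2610021A01Rik* (0.994), *Trim37* (0.994) and *Tmem132d* (0.994). These correlations rest on the gap between 2 groups of 4 and are a description only. *Nrp2*, a coreceptor of semaphorins and vascular endothelial growth factors, was 99.5, 107, 104 and 93.3 CPM across *K-Ctrl* replicates 1 to 4, against 50.5, 49.5, 47.1 and 48.4 CPM across *K-Setd2KO* replicates 1 to 4. *Plcd4*, a phospholipase C gene, went from 4.92 ± 1.40 to 0.515 ± 0.105 CPM (mean ± SD, n = 4), and *Tmem132d* from 1.70 ± 0.562 CPM to 0 counts in all 4 *K-Setd2KO* tumors. *Plcd4* had 11, 8, 4 and 3 counts in *K-Setd2KO* replicates 1 to 4. Both genes passed the low-count filter through the *K-Ctrl* tumors, so their place in this list follows in part from the filter. Among the members, r with *Igfbp5* was 0.89 for *Igfbp6* and 0.80 for *Igfbp2*, and between −0.27 and 0.59 for the others. Many other genes tracked *Igfbp5* more closely, as *Igfbp6* ranked 624 and *Igfbp2* 1458 by r among the genes tested.

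The summed markers of some other cell types were lower in *K-Setd2KO* tumors, while those of others overlapped between the groups. The summed level of 12 fibroblast markers was 790.5 to 1576 CPM in control tumors and 169 to 654 CPM in *K-Setd2KO* tumors, and 5 of the 12 were called lower. For this and the following lists the share of all genes tested that was called lower, 7.74%, is the background. The summed level of 6 mesothelial markers was 23.9 to 113 CPM in control tumors and 5.28 to 21.7 CPM in *K-Setd2KO* tumors. Of these, 5 of 6 were called lower by edgeR, 6 by DESeq2 and 1 by limma voom, and *Upk3b* was at 0 in *K-Setd2KO* replicate 2. *Dcn*, a defining fibroblast gene, was 55.0, 42.8, 48.6 and 35.3 CPM in the *K-Ctrl* tumors, against 69.0, 62.0, 28.7 and 61.8 CPM in the *K-Setd2KO* tumors. Its groups overlapped, and its mean was higher in *K-Setd2KO* (log2 fold change 0.28, SE 0.261, adjusted p 0.503). *Col1a1* was 169 ± 98.2 and 92.2 ± 45.0 CPM (mean ± SD, n = 4; adjusted p 0.260), so neither defining fibroblast gene was called. *Wt1*, a mesothelial transcription factor gene, was 6.22, 5.38, 4.02 and 1.70 CPM in the *K-Ctrl* tumors, against 2.67, 0.535, 0.277 and 1.20 CPM in the *K-Setd2KO* tumors.

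The other lists differed in how they moved. The endothelial sum (10 genes, 3 lower in edgeR, 8 lower at an unadjusted p of 0.05, 7 lower with DESeq2, 1 with limma voom) was 607 to 2219 CPM in control tumors and 338 to 600.4 CPM in *K-Setd2KO* tumors. The macrophage sum (9 genes, 5 lower) was 2099 to 6301 and 403 to 2585 CPM. The pan-leukocyte sum (6 genes, 4 lower) was 971 to 1745 CPM and 517 to 746 CPM. The smooth muscle and pericyte sum (10 genes, 0 lower and 1 higher in edgeR, 5 lower at an unadjusted p of 0.05, 4 lower with DESeq2, 0 with limma voom) was 188 to 313 CPM and 168 to 264 CPM. The alveolar type 2 sum (12 genes, 1 lower, 1 higher) was 57653 to 76859 CPM and 62878 to 93019 CPM, and that of alveolar type 1 cells (7 genes, 1 lower) was 2215 to 4281 CPM and 1312 to 2481 CPM. Lymphocyte, club cell and ciliated cell lists had 0 genes called by edgeR, against 3, 1 and 2 lower at an unadjusted p of 0.05, 3, 1 and 1 lower with DESeq2, and 0, 1 and 0 with limma voom, with *K-Ctrl* means 1.94, 4.27 and 4.12 times those of *K-Setd2KO*, and *Ccdc153* at 0 in 1 tumor.

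The part of these cell types in the levels of *Igfbp5*, *Igfbp6*, *Igfbp2* and the genes with an IGFBP-type domain was not tested.

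**Figure D5:**
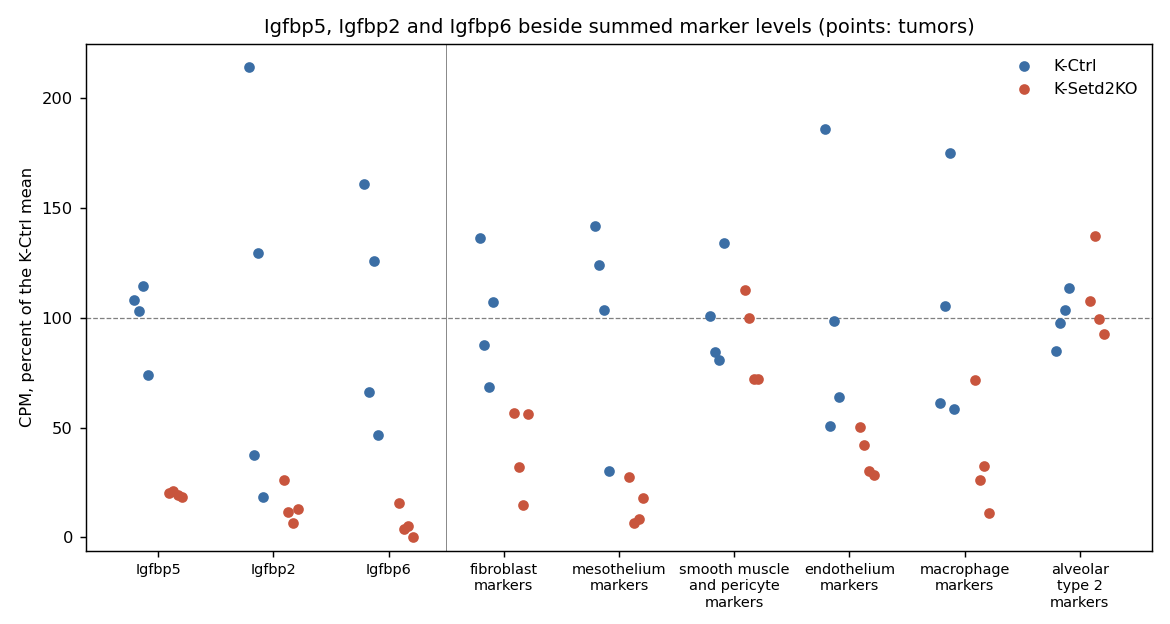
Level of *Igfbp5*, *Igfbp2*, *Igfbp6* and the summed level of 6 marker lists in each tumor (points), as a percent of the *K-Ctrl* mean (dashed line at 100). In *K-Setd2KO* tumors the fibroblast markers lie at 14.6 to 56.5%, the mesothelial markers at 6.65 to 27.4%, the endothelial markers at 28.4 to 50.4% and the alveolar type 2 markers at 92.8 to 137%.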

How the data were processed

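RNA was measured in 8 whole tumors, 4 *K-Ctrl* and 4 *K-Setd2KO*, grouped by their labels. The authors deposited 1 table of raw counts per gene with exon length and GRCm38 coordinates. The submitters' processing notes name GRCm38.p4, STAR 2.5.2b and featureCounts 1.5.0-p1, and the annotation release and strand setting are not given in the sources used here. Libraries were stranded poly(A) mRNA, read from both ends. Symbols and overlaps came from GENCODE M21, which held 99.26% of 48709 identifiers and the same coordinates for all 10 members. Promoter windows came from RefSeq (GRCm38.p6). Tumors of a group differed by a chi-square per degree of freedom of 30.5 or more, so none were copies.

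Counts were tested in R 4.3.3 with edgeR 4.0.16 (filterByExpr, TMM, robust quasi-likelihood fit, genotype as the one term). Benjamini-Hochberg adjustment covered all 14929 genes that passed the filter, and the threshold was 0.05. Every adjusted p is from this test unless another is named. The SE is the absolute log2 fold change over the square root of F. CPM used TMM-scaled libraries, in which 3 counts equal 0.138 to 0.513 CPM, and log2 CPM had a prior count of 2. The edgeR test alone was run on simulated counts, drawn with its own fitted dispersions. That run checked bias, direction and false calls, not power. Alternatives were RLE and upper-quartile factors, other filters, DESeq2 1.42.0 (the study's tool), limma voom 3.58.1, a sex term, a replicate block and leaving out each tumor.

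The members, pathway lists, marker lists and motifs were chosen with earlier results of these data known. Genes named are all members, pathway genes past the threshold or with the smallest p of their group, tested neighbors of *Igfbp5* within 500 kb, the 5 genes most correlated with it, up to 2 defining markers per cell type, and *Setd2*. The results of some listed genes are not reported here. Overlapping genes, *Adam28*, *Kazald1* and *Htra4* were added after their values were seen.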

Additional observations from a re-analysis of the deposited data

Results flagged for a closer look

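*Igfbp7* in *K-Setd2KO* replicate 4 was 173 CPM, whereas the other 3 *K-Setd2KO* tumors were at 272 to 291 CPM, a gap of 0.839 of the group's range. *Igfbp7* in this tumor was the 1 sample set apart among the 20 combinations of member and group examined, and chance sets apart about 1. This is the library with the fewest counts, with 1009 counts for *Igfbp7*. The cause was not tested.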

How the results depend on the processing

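*Igfbp5* kept its direction in all 16 alternatives, with log2 fold changes from −2.45 to −2.26. *Igf1*, *Igf1r*, *Igfbp3* and *Igfbp7* kept their direction and stayed above the threshold in all 16. *Igfbp6* stayed called in 14 of 15 and *Igfbp4* uncalled in 15 of 16. *Igf2r* was lowest with the sex term (−0.22), and with single tumors left out it ran from −0.21 (without *K-Setd2KO* replicate 4) to 0.0343 (without *K-Setd2KO* replicate 3), where it reversed. *Insr* reversed with 10 counts in every tumor (−0.0144) and with the replicate block (−0.0044), and with single tumors left out it ran from −0.11 (without *K-Setd2KO* replicate 3) to 0.13 (without *K-Setd2KO* replicate 4). Members called, 2 in the main setting, were 0 with no filter on low counts and 1 with 10 counts in every tumor (*Igfbp6* was then not tested), limma voom or the sex term, and 1 to 2 with single tumors left out. Without *K-Ctrl* replicate 1 or 3, or *K-Setd2KO* replicate 2, 3 or 4, the gene lost was *Igfbp2*. Pathway genes called, 14 in the main setting, were 21 with DESeq2 (14 lower and 7 higher, against 11 and 3), 16 with 10 counts in every tumor, 9 with no filter, 8 with the sex term and 7 to 14 with single tumors left out. Neighbors of *Igfbp5* called, 1 in the main setting, were 2 with DESeq2, 0 with limma voom, the sex term or the replicate block, and 0 to 1 with single tumors left out, and the called gene was *Xrcc5* with no filter and *Rpl37a* without *K-Setd2KO* replicate 4. Over all genes, 1897 calls became 3211 with DESeq2, 1237 with the sex term and 763 (without *K-Ctrl* replicate 3) to 2058 (without *K-Setd2KO* replicate 2) with single tumors left out. The share of *Igfbp5* among IGFBP mRNA moved from 9.56 to 27.4% in *K-Ctrl* and from 2.30 to 8.03% in *K-Setd2KO* without scaling to length, its 6006 bases of exon being the longest of the 6.

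No pairing of the tumors by replicate number was seen, but 4 tumors a group are too few to settle it. The correlation of deviations between tumors with the same number was −0.07, −0.03, 0.19 and −0.02, and 1 of 4 control tumors correlated best with its own number. With the replicate block, 1341 genes were called over all genes, 11 pathway genes and 2 members, of which *Igfbp6* remained, *Igfbp2* was lost (adjusted p 0.0628) and *Igfbp4* was gained (0.0420).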
